A study of Homo sapiens with 6 samples.

Results

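This account covers 5 genes of the TNF superfamily in T24 cells: the ligand genes TNFSF18 and TNF and the receptor genes TNFRSF1A, TNFRSF12A and TNFRSF21. They were taken by name from a list of 6, of which LTBR was not analysed here, out of 11079 genes in the deposited table. The names were put together with the values of the comparison below in view, so every value of the 5 genes in that comparison is a description and carries no test. The gene lists used below were also chosen with earlier results of these data known, so their counts of called genes are a description. T24 is an established human bladder cancer line. Cells of the first group, shBLACAT3, carried a lentiviral short hairpin RNA against the long noncoding RNA BLACAT3 and are labelled as BLACAT3 knockdown. Cells of the second group, shControl, carried a lentiviral control hairpin and are labelled WT. Both groups were selected with puromycin as stable cells and grown in medium with fetal bovine serum, and each had 3 RNA-seq libraries. The labels give neither the number of hairpins nor whether the replicates were separate cultures, so a p-value here covers library-to-library spread alone, and that spread may be technical. The targeted RNA was not analysed here, so the group labels were not checked against it.

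TNF superfamily ligands are mostly trimeric proteins of the cell surface that can be shed, and their receptors signal through TRAF adaptors or, where they have a death domain, through TRADD, FADD and RIPK1. TNF acting on TNFRSF1A switches on NF-kB and the stress kinases, and under other conditions caspases, and NF-kB in turn induces inhibitors of the pathway such as TNFAIP3 and NFKBIA. In the bladder, epithelial cells carry several of the receptors, and TNF is among the cytokines released during inflammation of the urothelium.

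Levels were given as FPKM, fragments per kilobase of transcript scaled to library size, which allows levels to be compared between genes. The values summed to between 211958 and 226953 FPKM per library, and because FPKM hold no read counts the depth behind them is unknown. Of the 22 urothelial and epithelial markers examined 6 had a row, with summed levels of 124 to 142 FPKM in shBLACAT3 libraries and 180 to 212 FPKM in shControl libraries, most of it from KRT8 and KRT18; the uroplakins were not analysed here. The list did not move one way. Of its 5 tested genes, KRT8 and KRT18 fell and 0 rose in limma. KRT7 averaged 32.0 ± 3.45 FPKM in shBLACAT3 and 20.0 ± 5.62 FPKM in shControl (SD, n = 3 each; adjusted p 0.097), and PPARG was also higher on average without passing. FOXA1 was lower without passing, at 1.88 ± 0.10 FPKM in shBLACAT3 and 2.53 ± 0.29 FPKM in shControl (SD, n = 3 each; adjusted p 0.099). KRT17, under the filter and not tested, was also lower, at 0.015 ± 0.016 FPKM in shBLACAT3 and 0.818 ± 0.28 FPKM in shControl (SD, n = 3 each). Of 16 leukocyte markers only CD68 had a row, at 0.00379 to 0.624 FPKM in shBLACAT3 and 0.686 to 1.21 FPKM in shControl libraries. Of 8 endothelial markers only ESAM had one, at 1.28 to 2.0 FPKM in shBLACAT3 and 3.49 to 3.63 FPKM in shControl libraries. ESAM was called lower in limma (log2 fold change -0.74, SE 0.12, adjusted p 0.015). The part of these markers in the results was not tested. All libraries came from the T24 line, and in bulk RNA fewer cells carrying a marker and less of its RNA per cell cannot be told apart.

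The members differed in direction. TNFSF18 stood higher in every shBLACAT3 library, TNF and TNFRSF21 stood lower in every one, and the values of TNFRSF1A and TNFRSF12A overlapped between the groups. Thus the groups did not overlap in 1 member on the higher side and in 2 on the lower side. Among the 10008 genes that averaged 1 FPKM or more, they did not overlap in 32.8%, with 14.1% higher and 18.6% lower in shBLACAT3. Since the genes were picked on this comparison, nothing is read from their share.

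**Figure D1:**
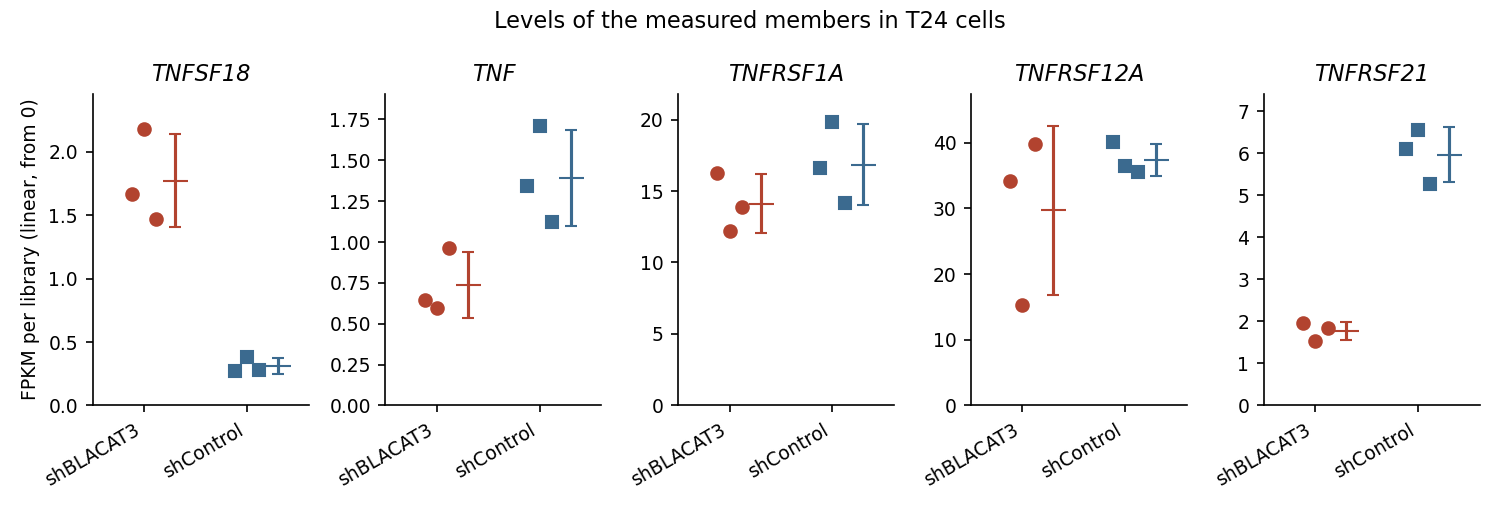
FPKM of each library (points, n = 3 per group) with the group mean and SD (bars beside the points) on linear axes that start at 0, shBLACAT3 in red circles and shControl in blue squares. TNFSF18 lies between 1.47 and 2.18 FPKM in shBLACAT3 and between 0.269 and 0.381 FPKM in shControl, and for TNFRSF12A a single shBLACAT3 library, at 15.3 FPKM, lies far under the rest.

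TNFSF18 encodes the ligand of TNFRSF18, a costimulatory receptor of T cells. It had 1.67, 2.18 and 1.47 FPKM in shBLACAT3 replicates 1, 2 and 3, against 0.269, 0.381 and 0.275 FPKM in shControl replicates 1, 2 and 3. The lowest shBLACAT3 library was thus above the highest shControl library. The means were 1.77 ± 0.37 FPKM in shBLACAT3 and 0.308 ± 0.063 FPKM in shControl (SD, n = 3 each), a ratio of 5.75. On the log2(FPKM + 1) scale, which understates changes of low genes, the difference was 1.077 (SE 0.11), and with a pseudocount of 0.1 it was 2.19. The gene passed the filter, with a mean of 1.04 FPKM over the 6 libraries, only through the shBLACAT3 group. Among all genes in the table, its mean stood at percentile 19.9 in shBLACAT3 and at percentile 0.316 in shControl. An annotated noncoding gene lies on the other strand, and the sources used here do not give the strand setting of the authors' quantification. The partner receptor gene TNFRSF18 was not analysed here.

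The promoter windows of the members that stood furthest apart in opposite directions, and that of TNF, are shown to compare their base composition. Each runs from 250 bases before to 50 bases after the RefSeq transcription start in GRCh38.p14, is written 5′ to 3′ on the gene's strand, and has its CG dinucleotides in capitals. They lie at chr1:173050892-173051191 on the minus strand for TNFSF18, chr6:47309856-47310155 on the minus strand for TNFRSF21 and chr6:31575315-31575614 on the plus strand for TNF.
TNFSF18: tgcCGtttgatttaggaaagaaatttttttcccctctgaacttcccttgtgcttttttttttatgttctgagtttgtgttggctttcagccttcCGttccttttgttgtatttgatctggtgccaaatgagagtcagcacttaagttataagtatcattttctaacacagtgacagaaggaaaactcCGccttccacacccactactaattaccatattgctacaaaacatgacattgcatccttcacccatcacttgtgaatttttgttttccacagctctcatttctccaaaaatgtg
TNFRSF21: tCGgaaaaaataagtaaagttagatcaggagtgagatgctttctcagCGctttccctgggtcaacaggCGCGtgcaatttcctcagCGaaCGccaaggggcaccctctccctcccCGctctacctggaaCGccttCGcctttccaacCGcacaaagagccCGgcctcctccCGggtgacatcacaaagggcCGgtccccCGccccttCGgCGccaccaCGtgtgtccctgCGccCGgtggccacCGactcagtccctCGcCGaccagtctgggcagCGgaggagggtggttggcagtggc
TNF: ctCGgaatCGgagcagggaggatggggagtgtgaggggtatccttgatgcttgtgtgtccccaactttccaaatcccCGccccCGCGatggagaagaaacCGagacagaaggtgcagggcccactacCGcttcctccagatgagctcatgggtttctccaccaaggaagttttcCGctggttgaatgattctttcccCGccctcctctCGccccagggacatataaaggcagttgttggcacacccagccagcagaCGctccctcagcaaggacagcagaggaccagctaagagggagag

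The TNFSF18 window held 3 CG dinucleotides at 38.0% G + C, and the TNFRSF21 window held 23 at 63.3%. The TNF window held 11 at 57.7%, and the median over all 35116 promoter windows of the table was 14. A search on both strands for 5 motifs gave 0 matches in the TNFSF18, TNFRSF21 and TNFRSF1A windows. These were the NF-kB consensus (present in 11.3% of all windows), the IRF pair made of GAAA, any 2 bases and GAAA (3.57%), AP-1 as TGANTCA (7.71%), TEAD as GGAATG (14.0%) and the TATA box TATAAA (11.5%). The TNF window held 1 match, the TATA box at position -29 from the start. Only exact matches to these patterns were counted, so a site that departs from a pattern by a base was missed. A window without a match may therefore still hold a binding site. Of the 6 listed genes 5 had a promoter window, and TNFRSF12A had none.

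TNF, the founding inflammatory cytokine of the family, had 0.648, 0.596 and 0.966 FPKM in shBLACAT3 replicates 1, 2 and 3, against 1.34, 1.71 and 1.12 FPKM in shControl replicates 1, 2 and 3. The groups did not overlap, but the gap between the highest shBLACAT3 and the lowest shControl library was small beside the spread within either group. The means were 0.737 ± 0.20 FPKM in shBLACAT3 and 1.39 ± 0.30 FPKM in shControl (SD, n = 3 each), so that shBLACAT3 stood at 52.9% of shControl, and the log2 difference was -0.46 (SE 0.14). TNF passed the filter only through the shControl group, with a mean of 1.06 FPKM over the 6 libraries. Within a library, the ratio of TNF to TNFSF18 was 0.388, 0.273 and 0.656 in shBLACAT3, against 4.98, 4.49 and 4.08 in shControl. TNF was the higher of these ligands in each shControl library and the lower in each shBLACAT3 library.

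TNF mRNA is known for an AU-rich element in its 3′ untranslated region, bound by the decay factor ZFP36. The 30 bases with the most copies of the nonamer TTATTTATT are shown because ZFP36 is among the genes that fell below. They are bases 1337 to 1366 of the TNF transcript in GENCODE 29, with overlapping nonamers in capitals.
TNF element: tgaTTATTTATTATTTATTTATTATTTATT
The whole region held 5 nonamers in 799 bases, and TNFSF18, TNFRSF1A, TNFRSF12A and TNFRSF21 held 0. Of 19133 genes with a protein-coding transcript, 8.21% had at least 1 nonamer in the longest 3′ untranslated region. At least as many as in TNF were found in 0.178%, TNF included.

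TNFRSF21, a death domain receptor of the family, stood lower in shBLACAT3 by more than any other member. It had 1.95, 1.54 and 1.84 FPKM in shBLACAT3 replicates 1, 2 and 3, against 6.09, 6.55 and 5.26 FPKM in shControl replicates 1, 2 and 3. Every shBLACAT3 library was far under the lowest shControl library, and neither group spread widely. The means were 1.78 ± 0.21 FPKM in shBLACAT3 and 5.97 ± 0.65 FPKM in shControl (SD, n = 3 each), which is 29.8% of the shControl level, with a log2 difference of -1.33 (SE 0.10).

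TNFRSF1A, the broadly expressed receptor of TNF, had 16.3, 12.2 and 13.9 FPKM in shBLACAT3 replicates 1, 2 and 3, against 16.6, 19.8 and 14.1 FPKM in shControl replicates 1, 2 and 3. The groups overlapped, since the highest shBLACAT3 library lay within the shControl range. The means were 14.1 ± 2.05 FPKM in shBLACAT3 and 16.9 ± 2.85 FPKM in shControl (SD, n = 3 each), with a log2 difference of -0.24 (SE 0.17). The ratio of TNFRSF1A to TNFRSF21 was 8.34, 7.93 and 7.54 in shBLACAT3, against 2.73, 3.03 and 2.69 in shControl.

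TNFRSF12A encodes the receptor of TNFSF12, also called TWEAK, and is induced in many tissues by growth factors and injury. It had 34.2, 15.3 and 39.8 FPKM in shBLACAT3 replicates 1, 2 and 3, against 40.1, 36.4 and 35.6 FPKM in shControl replicates 1, 2 and 3. The low value of shBLACAT3 replicate 2 set the group's spread, and the other shBLACAT3 libraries reached into the shControl range or just under it. The means were 29.8 ± 12.9 FPKM in shBLACAT3 and 37.4 ± 2.43 FPKM in shControl (SD, n = 3 each). The log2 difference was -0.42 (SE 0.41), and it was -0.02 without shBLACAT3 replicate 2. CLDN6, a claudin gene, overlaps TNFRSF12A on the other strand.

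The order of the 5 levels was TNFRSF12A, TNFRSF1A, TNFRSF21, TNFSF18 and TNF in shBLACAT3, and TNFRSF12A, TNFRSF1A, TNFRSF21, TNF and TNFSF18 in shControl. In shBLACAT3, TNFRSF21 and TNFSF18 did not differ beyond their spread. The ranges of TNFRSF12A and TNFRSF1A overlapped between libraries, through replicate 2 of TNFRSF12A. Within each shBLACAT3 library TNFRSF12A was the higher, with ratios to TNFRSF1A of 2.1, 1.25 and 2.87 in replicates 1, 2 and 3. In shControl no neighbours in the order overlapped.

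The other measured ligands fell or did not pass the test. Of 16 other ligand genes 6 had a row and 4 reached a mean of 1 FPKM. Of these, 2 fell, TNFSF15 and TNFSF9, and 0 rose at an adjusted p under 0.05 in limma, where 9.37% of all 10008 genes were called (2.57% higher and 6.80% lower). The median log2 fold change of the 4 was -0.39, and that of all tested genes -0.0025. TNFSF15, a ligand of the death domain receptor TNFRSF25 that is known from endothelium and gut, fell to 1.40, 0.722 and 1.31 FPKM in shBLACAT3, against 4.01, 4.02 and 3.03 FPKM in shControl (log2 fold change -1.14, SE 0.16, adjusted p 0.0078). TNFSF9, which costimulates T cells through TNFRSF9, had 15.5, 17.6 and 19.8 FPKM in shBLACAT3, against 24.2, 26.1 and 22.8 FPKM in shControl (-0.45, SE 0.10, adjusted p 0.040). CD70, the ligand of CD27 and the most abundant ligand measured, had 21.7, 25.6 and 24.1 FPKM in shBLACAT3, against 32.5, 30.04 and 28.5 FPKM in shControl. Its groups did not overlap, and it missed the threshold (-0.34, SE 0.08, adjusted p 0.053). The call of TNFSF9 was lost without any 1 library other than shBLACAT3 replicate 3 (adjusted p 0.084 to 0.13).

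TNFSF12, the ligand of TNFRSF12A, had 5.90, 5.16 and 3.76 FPKM in shBLACAT3, against 4.04, 3.85 and 4.82 FPKM in shControl, and did not pass (0.17, SE 0.15, adjusted p 0.53). TNFSF13, a B cell survival factor, was under the filter and not tested. It had 0.0586, 0.1498 and 0.131 FPKM in shBLACAT3, against 0.619, 0.461 and 0.459 FPKM in shControl. Both genes overlap the annotated readthrough gene TNFSF12-TNFSF13 on the same strand, and how reads there were assigned is not known, so their values are uncertain. LTB, a chain of the ligand of LTBR, was also under the filter, with means of 0.537 ± 0.020 FPKM in shBLACAT3 and 0.574 ± 0.13 FPKM in shControl (SD, n = 3 each). LTA, its partner chain, and TNFSF14, another ligand of LTBR, were not analysed here. Summed over the 8 measured ligands, TNFSF18 and TNF included, levels were 47.5 to 52.6 FPKM in shBLACAT3 and 61.7 to 67.5 FPKM in shControl libraries. TNFSF18 made up 3.50% ± 0.66 of the sum in shBLACAT3 and 0.471% ± 0.087 in shControl, and CD70 46.9% ± 1.6 in shBLACAT3 and 46.4% ± 1.68 in shControl (SD, n = 3 each).

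**Figure D2:**
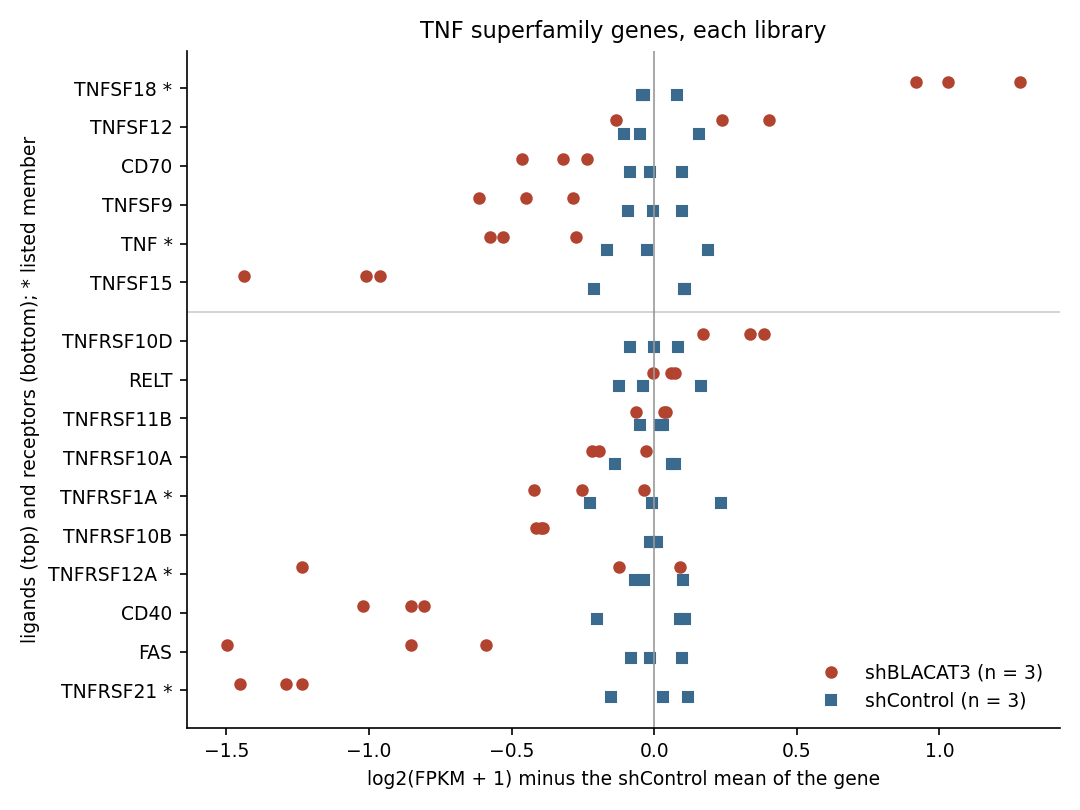
Each library's log2(FPKM + 1) minus the gene's shControl mean, for the ligand and receptor genes averaging 1 FPKM or more, shBLACAT3 in red circles and shControl in blue squares (n = 3 each), with listed members starred. TNFSF18 is the only gene here whose 3 shBLACAT3 points all lie above 0.5, while TNFRSF21, FAS, CD40 and TNFSF15 lie furthest to the low side on average. All 3 shBLACAT3 points also lie under the shControl mean for TNF, CD70, TNFSF9, TNFRSF10B, TNFRSF1A and TNFRSF10A.

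Among the other receptors CD40, FAS and TNFRSF10B fell. Of 25 such genes 9 had a row and 7 were tested, with 3 lower and 0 higher, and the median log2 fold change was -0.15. The share called was 42.9%, against 9.37% of all tested genes. CD40, which activates antigen-presenting cells and is also found on epithelial cells, had 9.79, 8.61 and 10.1 FPKM in shBLACAT3, against 20.0, 19.7 and 16.0 FPKM in shControl (log2 fold change -0.89, SE 0.11, adjusted p 0.0042). TNFRSF10B, a receptor of the death ligand TRAIL, had 19.6, 19.8 and 19.9 FPKM in shBLACAT3, against 26.2, 26.5 and 26.6 FPKM in shControl, groups far apart beside their spread (-0.40, SE 0.05, adjusted p 0.0059). FAS, the receptor of FAS ligand, had 3.78, 7.97 and 6.48 FPKM in shBLACAT3, against 13.4, 11.8 and 12.4 FPKM in shControl (-0.98, SE 0.22, adjusted p 0.041). FAS overlaps the actin gene ACTA2 on the other strand, and its call was lost without shBLACAT3 replicate 3 (adjusted p 0.056) or without shControl replicate 1, 2 or 3 (0.14, 0.10 and 0.12).

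The remaining receptors did not pass. TNFRSF10D, a decoy receptor of TRAIL, had 5.89, 6.13 and 5.16 FPKM in shBLACAT3, against 4.79, 4.46 and 4.15 FPKM in shControl, groups that did not overlap (log2 fold change 0.30, SE 0.09, adjusted p 0.10). TNFRSF10A, the other TRAIL receptor with a death domain, averaged 12.2 ± 0.95 FPKM in shBLACAT3 and 13.6 ± 1.18 FPKM in shControl (SD, n = 3 each; adjusted p 0.35). The TRAIL receptor genes are similar in sequence, so reads may have been split between them. TNFRSF11B, a soluble decoy for the bone cytokine TNFSF11, averaged 2.92 ± 0.16 FPKM in shBLACAT3 and 2.90 ± 0.12 FPKM in shControl, and RELT 1.97 ± 0.083 FPKM in shBLACAT3 and 1.89 ± 0.30 FPKM in shControl. Under the filter, TNFRSF25, which overlaps PLEKHG5 on its own strand and ESPN on the other, averaged 0.366 ± 0.24 FPKM in shBLACAT3 and 0.828 ± 0.22 FPKM in shControl, and TNFRSF11A 0.287 ± 0.017 FPKM in shBLACAT3 and 0.522 ± 0.15 FPKM in shControl. TNFRSF1B, the second receptor of TNF, was not analysed here. Summed over the 12 measured receptors, levels were 88.7 to 114 FPKM in shBLACAT3 and 134 to 148 FPKM in shControl libraries. TNFRSF21 made up 1.70% ± 0.080 of this sum in shBLACAT3 and 4.20% ± 0.33 in shControl (SD, n = 3 each).

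Among signal carriers between receptor and nucleus, the share called was near that of all genes, 9.37%. Of 18 tested adaptors and ubiquitin ligases 2 (11.1%) fell and 0 rose, with a median log2 fold change of -0.067. TRAF1, an adaptor that NF-kB induces, had 4.53, 3.95 and 4.23 FPKM in shBLACAT3, against 8.45, 7.96 and 8.18 FPKM in shControl (-0.81, SE 0.08, adjusted p 0.0016). FADD, which links death receptors to caspases, had 11, 10.6 and 11.5 FPKM in shBLACAT3, against 13.5, 13.5 and 13.9 FPKM in shControl (-0.28, SE 0.06, adjusted p 0.041). The FADD call was lost without any 1 library other than shBLACAT3 replicate 3 (adjusted p 0.075 to 0.16). Of 21 kinases and caspases 1 (4.76%) fell and 0 rose, with a median of 0.085. Without shBLACAT3 replicate 3, 2 of these 21 were called higher and 1 lower.

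Feedback inhibitors of the pathway fell in 5 of 14 tested genes, and 0 rose, with a median log2 fold change of -0.16. The share called was 35.7%, against 9.37% of all tested genes. TNFAIP3, a ubiquitin editing enzyme that shuts off TNF signalling, had 3.02, 2.70 and 2.996 FPKM in shBLACAT3, against 14.1, 12.5 and 13.5 FPKM in shControl (-1.88, SE 0.08, adjusted p 5e-05). NFKBIA, which holds NF-kB in the cytoplasm, had 15.5, 19.4 and 18.9 FPKM in shBLACAT3, against 46.7, 41.8 and 41.3 FPKM in shControl (-1.23, SE 0.10, adjusted p 0.00082). TNIP1, a partner of TNFAIP3, had 10.9, 8.66 and 9.52 FPKM in shBLACAT3, against 27.2, 24.5 and 20.4 FPKM in shControl (-1.23, SE 0.12, adjusted p 0.0021). In all 3 genes the highest shBLACAT3 library lay far under the lowest shControl library. The ribonuclease gene ZC3H12A (-0.61, adjusted p 0.018) and RNF11 (-0.38, adjusted p 0.009) fell by less, and both lost the call without shControl replicate 1 (0.078 and 0.052), ZC3H12A also without shControl replicate 2 (0.074).

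Of 24 tested genes that TNF is known to induce, 10 fell and 1 rose in limma, and the median log2 fold change was -0.38. The share called was 45.8%, against 9.37% of all tested genes. As the list was chosen with earlier results of these data known, nothing is read from that share. CCL20, a chemokine for lymphocytes and dendritic cells, had 4.53, 7.11 and 4.41 FPKM in shBLACAT3, against 24.7, 26.6 and 24.5 FPKM in shControl (-2.07, SE 0.16, adjusted p 0.00072). IL6, the inflammatory cytokine, had 6.85, 4.81 and 6.67 FPKM in shBLACAT3, against 15.0, 14.6 and 15.8 FPKM in shControl (-1.19, SE 0.13, adjusted p 0.0024). The proteoglycan gene SDC4, the adhesion receptor gene ICAM1, the AP-1 gene JUNB and the growth factor gene CSF2 fell by 1.37, 1.36, 1.18 and 1.16 on the log2 scale. CXCL1, a neutrophil chemokine named after its value was seen, rose to 28.2, 32.5 and 30.9 FPKM in shBLACAT3, against 15.3, 22.0 and 17.6 FPKM in shControl (0.72, SE 0.13, adjusted p 0.020). Its call was lost without shBLACAT3 replicate 1 or 2 or shControl replicate 1 or 3 (adjusted p 0.051 to 0.076), and the CXCL1 sequence is close to that of CXCL2 and CXCL3.

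Shedding and mRNA decay, which control TNF protein, were examined as well. Of 8 tested shedding genes 2 fell and 0 rose, with a median of -0.12. Among all 10008 tested genes 9.37% were called (2.57% higher and 6.80% lower). The split of the shedding genes did not hold in every setting, since 2 were called higher and 2 lower without shBLACAT3 replicate 3. ADAM10, a related sheddase named after its value was seen, averaged 15.7 ± 2.87 FPKM in shBLACAT3 and 10.9 ± 0.48 FPKM in shControl (SD, n = 3 each), and did not pass (0.47, SE 0.13, adjusted p 0.080). ADAM17, the protease that releases TNF from the cell surface, had 14.9, 15.2 and 14.2 FPKM in shBLACAT3, against 18.2, 19.2 and 18.2 FPKM in shControl (log2 fold change -0.31, SE 0.06, adjusted p 0.027). FURIN, which matures ADAM17, averaged 10.4 ± 1.18 FPKM in shBLACAT3 and 14.8 ± 0.72 FPKM in shControl (SD, n = 3 each; -0.48, adjusted p 0.026). Of 12 genes of mRNA decay and translation 1 (8.33%) fell and 0 rose, with a median of 0.012. This was ZFP36, with 8.02, 8.57 and 12.3 FPKM in shBLACAT3, against 16.98, 17.4 and 16.7 FPKM in shControl (-0.78, SE 0.15, adjusted p 0.024). The calls of ADAM17 and FURIN were lost without shControl replicate 1, 2 or 3 or shBLACAT3 replicate 1, and that of ZFP36 also without shBLACAT3 replicate 2 (adjusted p 0.062 to 0.11).

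**Figure D3:**
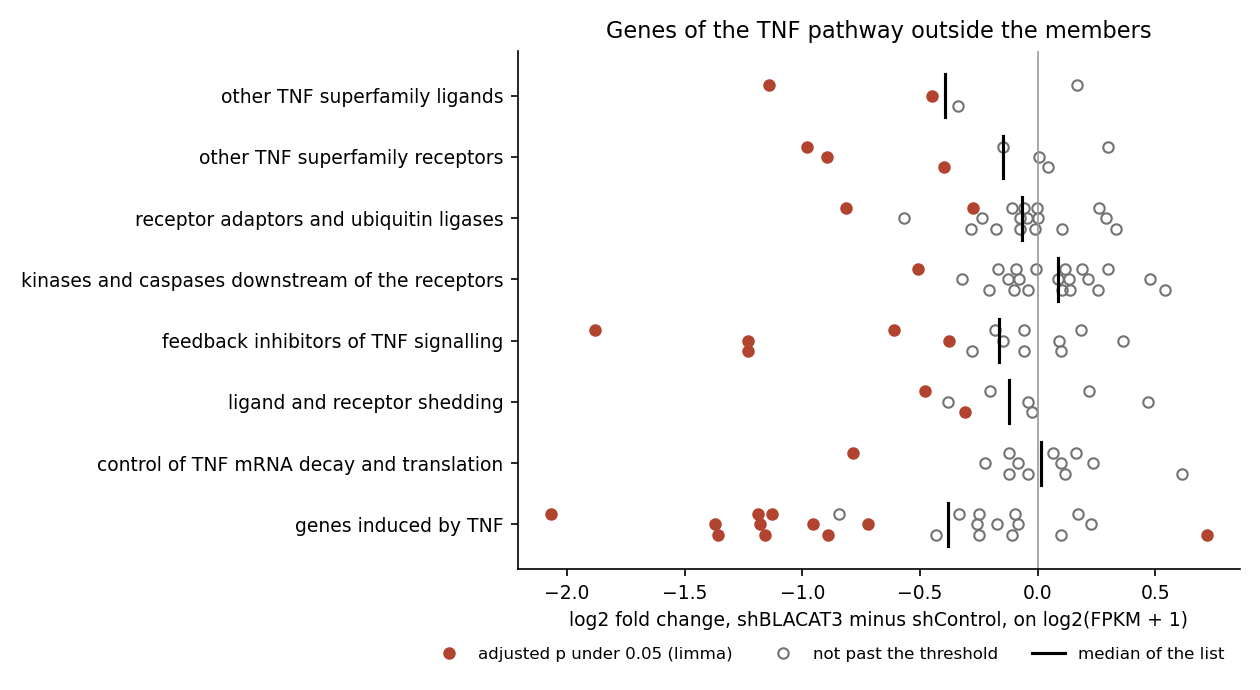
Log2 fold change (shBLACAT3 minus shControl, on log2(FPKM + 1)) of each tested gene in 8 pathway lists, filled where the adjusted p in limma was under 0.05, with a bar at the median of the list. CCL20 is the leftmost filled point at -2.07, CXCL1 at 0.72 is the single filled point on the right, and the list medians lie between -0.39 and 0.085.

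For the members with a difference of at least 0.5 on the log2 scale, the genes with the nearest profile were sought among all tested genes. The measure was the mean absolute difference in log2(FPKM + 1) over the 6 libraries after each gene was centred at its shControl mean, and it is given as a description. For TNFSF18 they were WNT5A, a secreted Wnt ligand (0.0812), TGFB2, a TGF-beta ligand (0.0877), and RND3 (0.0917). WNT5A averaged 2.28 ± 0.39 FPKM in shBLACAT3 and 0.641 ± 0.10 FPKM in shControl, and TGFB2 3.53 ± 0.40 FPKM in shBLACAT3 and 1.21 ± 0.13 FPKM in shControl (SD, n = 3 each). RND3 averaged 15.6 ± 3.6 FPKM in shBLACAT3 and 7.25 ± 0.83 FPKM in shControl (SD, n = 3 each). The nearness holds on the log2(FPKM + 1) scale, which understates changes of low genes. As ratios of means, WNT5A stood at 3.56, TGFB2 at 2.93 and RND3 at 2.15, against 5.75 for TNFSF18. For TNFRSF21 they were ICAM1 (0.0502), the semaphorin gene SEMA4B (0.0615) and SDC4 (0.0714). This nearness too holds on the log2(FPKM + 1) scale. Their ratios of means were 0.381 for ICAM1, 0.287 for SEMA4B and 0.383 for SDC4, against 0.298 for TNFRSF21. With a pseudocount of 0.1 the log2 difference was -1.39 for ICAM1 and -1.38 for SDC4, against -1.69 for TNFRSF21. SEMA4B averaged 1.82 ± 0.13 FPKM in shBLACAT3 and 6.34 ± 0.34 FPKM in shControl, near the levels of TNFRSF21, and ICAM1 averaged 23.6 ± 2.20 FPKM in shBLACAT3 and 61.8 ± 2.65 FPKM in shControl (SD, n = 3 each).

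**Figure D4:**
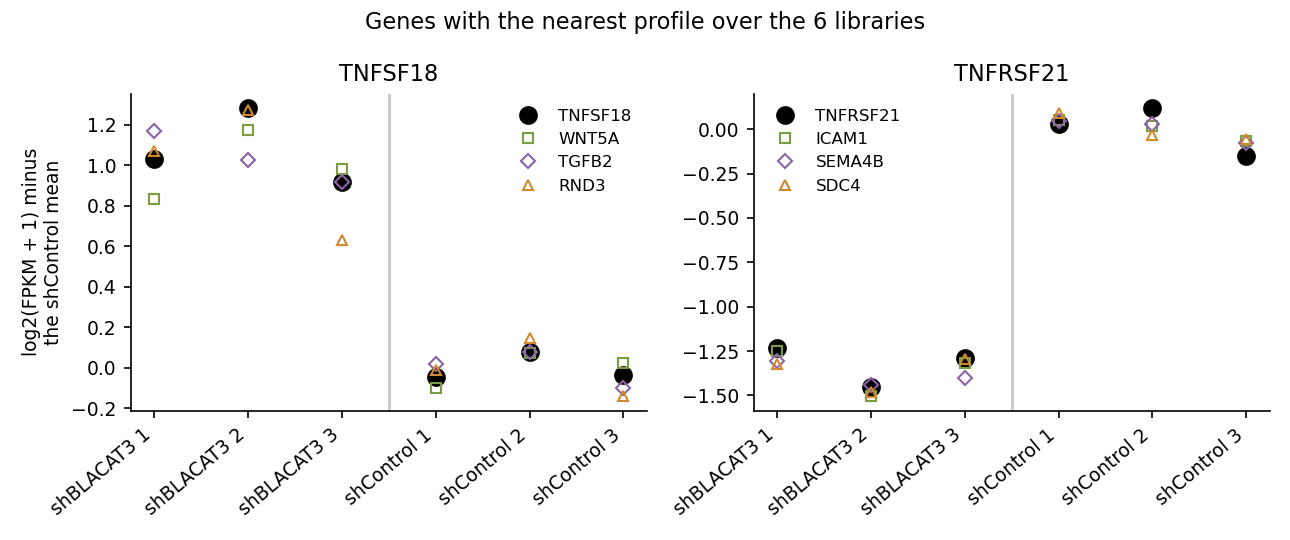
Log2(FPKM + 1) minus the shControl mean in each of the 6 libraries, shBLACAT3 left of the grey line and shControl right of it, for TNFSF18 and TNFRSF21 (black filled circles) and the 3 genes nearest to each (open symbols). On this scale ICAM1, SEMA4B and SDC4 lie almost on TNFRSF21 in all 6 libraries. WNT5A in shBLACAT3 replicate 1, TGFB2 in replicate 2 and RND3 in replicate 3 lie under TNFSF18.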

How the data were processed

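RNA-seq libraries were prepared from total RNA of T24 cells with a stranded kit, per the labels' protocols. The submitters' processing notes name cutadapt, HISAT2 2.1.0 and StringTie; for the build, annotation and strand setting, the sources used here give nothing. The deposited values were read as FPKM from the values and those tools, since the header names no unit. Columns headed NC were read as shControl and SH as shBLACAT3, and their number as the replicate. Of 11081 rows, 11007 matched a symbol by Ensembl identifier, and rows of 2 shared symbols were summed. In every row the higher group mean was at least 0.5 FPKM, so lower genes were not analysed here.

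The test, limma 3.58.1 under R 4.3.3, took log2(FPKM + 1) of genes averaging 1 FPKM or more across all 6 libraries (group as the only term, mean-variance trend, two-sided, Benjamini-Hochberg over all 10008 genes, threshold 0.05). Depth is unknown, so no counting interval is given. On simulated data with 9926 genes the test called 50% of genes changed by 0.5 and 84% of those changed by 1 on the log2 scale, with 11 unchanged genes among 164 calls. The members and gene lists were chosen with earlier results of these data known. In each list the genes past the threshold were named, up to 6 by size, along with every other measured ligand and receptor. The values of 1 gene past the threshold are not reported here. Promoters come from RefSeq (GRCh38.p14) and transcripts from GENCODE 29; as the files' build is not given, no other coordinates are used. Alternatives were a replicate block, a pseudocount of 0.1, other filters and scalings, no trend, array weights and each library left out.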

Additional observations from a re-analysis of the deposited data

How the results depend on the processing

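No member changed direction under the alternatives examined for members, which did not include the other filters, no trend or array weights. The size of the differences on the log scale rests on the pseudocount. With 0.1 the log2 difference was 2.19 for TNFSF18, -0.84 for TNF and -1.69 for TNFRSF21, and quantile normalization gave 1.32 for TNFSF18 and -0.29 for TNF. Leaving out 1 library moved TNFSF18 between 0.97 and 1.16, TNF between -0.55 and -0.37, TNFRSF1A between -0.35 and -0.12, TNFRSF12A between -0.68 and -0.02 and TNFRSF21 between -1.40 and -1.26. Calls over all genes numbered 387 to 1315 when a library was left out; without shBLACAT3 replicate 3 55.7% of them were lower, against 72.6% with all libraries. Over the same settings the calls were 1 to 2 of the ligands, 2 to 3 of the receptors, 1 to 2 of the adaptors, 1 to 3 of the kinases and caspases, 3 to 5 of the feedback inhibitors, 0 to 4 of the shedding genes (at the highest 2 higher and 2 lower), 0 to 1 of the decay genes and 10 to 12 of the genes induced by TNF. Of 23 named calls 14 held whichever library was left out.

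The replicate numbers were not taken as pairing, because the labels name no batch. Deviations of same-numbered libraries correlated with 0.1002, 0.117 and 0.090, and those of differently numbered libraries with -0.1158 to 0.02394. Each library thus correlated best with its own number, and what this reflects was not tested. The number of calls rests on this choice, with 938 genes called in the main fit. With the replicate block, 612 genes were called, with 1 ligand, 1 adaptor, 1 shedding gene and 0 decay genes, and TNFSF9, FAS, FADD, ADAM17 and ZFP36 lost their calls. A filter at 0.1 or none gave 4 ligand calls, of 6 tested, with CD70 among them. Array weights gave 3 of 4 ligands, CD70 included (adjusted p 0.033), 3 shedding genes, 1 of them higher, and 14 genes induced by TNF. Total scaling gave 1 adaptor and 1 shedding call, median scaling 1 ligand and 1 adaptor call, and quantile normalization 1 ligand, 1 adaptor and 2 kinase or caspase calls. The sign of TNFRSF11B, which was not called, turned to -0.0154 and -0.0106 without shBLACAT3 replicates 1 and 2 and to -0.021 without shControl replicate 2, and that of RELT to -0.0191 in the last of these, while the highest values with a library left out were 0.0385 for TNFRSF11B and 0.124 for RELT. The cause of these changes was not tested.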

Other observations

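Some pathway genes varied widely between libraries of a group. In 6 of the 113 tested genes of the lists and members (5.31%) the highest and lowest FPKM + 1 within a group differed by at least 2-fold, as in 478 of all 10008 tested genes (4.78%). Besides TNFRSF12A these were XIAP, MAPK14, TANK, ITCH and RC3H1. MAPK14, the p38 alpha kinase, had 3.35, 9.89 and 2.88 FPKM in shBLACAT3 replicates 1, 2 and 3, against 3.36, 10.4 and 3.52 FPKM in shControl replicates 1, 2 and 3, so that replicate 2 was high in both groups. TANK, a binding partner of TRAF proteins, had 5.26, 15.9 and 5.11 FPKM in shBLACAT3, against 4.71, 6.81 and 5.81 FPKM in shControl, again highest in replicate 2 of each. ITCH, a ubiquitin ligase, had 17.4, 34.4 and 14.2 FPKM in shBLACAT3, against 14.1, 27.5 and 24.9 FPKM in shControl, also highest in replicate 2 of each, though shControl replicate 3 was close to it. XIAP, a caspase inhibitor, had 1.77, 2.97 and 1.98 FPKM in shBLACAT3, against 8.80, 1.91 and 2.75 FPKM in shControl. RC3H1, which degrades TNF mRNA, had 5.43, 5.35 and 4.05 FPKM in shBLACAT3, against 4.25, 5.04 and 0.819 FPKM in shControl. What sets these libraries apart was not tested.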
